A study of Homo sapiens with 24 samples.

Results

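The change that low oxygen brought in Mel-624 cells was set against the change it brought in WM35 cells, gene by gene. Both are human melanoma cell lines. The contrast was hypoxia minus normoxia in Mel-624 minus the same difference in WM35, so a positive value means that a transcript ended relatively higher in hypoxic Mel-624. It drew on 12 of the 24 arrays of the study, 3 in each of 4 groups whose arrays carry the letters A, B and C. Of the 18811 genes with a named probe, 8371 were detected in both lines and were tested. WM35 cells had no added agent and were kept for 24 h at 21% (normoxia) or 1% oxygen (hypoxia). Mel-624 cells had received a non-targeting siRNA pool (siControl) in both arms and were kept for 3 days in normoxia or hypoxia, whose oxygen levels the labels state for WM35 alone. The other 12 arrays, of cells given IGF1 or an siRNA against its receptor, entered only the normalization, the detection filter and the estimate of spread. Both lines grew in RPMI medium with 5% serum, WM35 was plated more densely, and each line was hybridised to a BeadChip of its own. Cell line, chip, time in hypoxia, transfection and plating density therefore cannot be told apart in any difference below. The labels do not say whether the 3 arrays of a group came from separate cultures, so the p-values measure the spread between these arrays, which may be technical.

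Cells sense oxygen through prolyl hydroxylases that mark the alpha subunits of the hypoxia-inducible factors (HIF) for destruction. When oxygen is scarce the subunits persist, pair with ARNT and bind a short core motif near their target genes. Targets include glucose transporters, glycolytic enzymes, secreted vascular factors, mitophagy receptors and feedback hydroxylases. Many cultured cells also slow DNA synthesis and ribosome production in prolonged hypoxia. In melanoma, low oxygen has been linked to a less pigmented and more invasive state.

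Between 13948 and 15987 of the 47231 probes were detected on each of the 12 arrays. Mean signal before normalization was 331 ± 12.3 in normoxia and 259 ± 6.95 in hypoxia in WM35 (SD, n = 3), and 342 ± 25.9 and 309 ± 18.2 in Mel-624. The part of this in the changes was not tested. The WM35 normoxia array C and hypoxia array A stood apart from their group on the main axis of spread within WM35 groups. Some counts without both are given below, and counts not given may move as well. On the matching axis of Mel-624, normoxia array B scored -8.88, against 4.62 and 4.26 for arrays A and C. SOX10, a neural crest lineage factor, was detected on all 6 arrays of each line. The pigment cell genes TYR, TYRP1, PMEL and MLANA were detected on all 6 Mel-624 arrays and on 0 of 6 in WM35. MITF was detected on 6 of 6 Mel-624 and 3 of 6 WM35 arrays, S100B on 0 in either line, and DCT had no probe. WM35 thus carried the melanoma label without detected TYR, TYRP1, PMEL or MLANA. The summed signal of the 7 melanocyte and melanoma markers with a probe lay at 3500 to 3690 in normoxic and 2710 to 2740 in hypoxic WM35. In Mel-624 it lay at 49000 to 52100 and 50100 to 52600. Markers of fibroblasts (2 of 10 with a probe), keratinocytes and epithelium (0 of 9), immune cells (1 of 8) and endothelium (0 of 10) were detected on all 6 Mel-624 arrays, against 0, 2, 1 and 2 in WM35. Those detected on all 6 were LUM, DCN and CD68 in Mel-624, and KRT8, KRT18, CD68, ESAM and TIE1 in WM35. Others, among them COL1A1, KRT5, PTPRC, CD3E and PECAM1, were detected on no array of either line. The summed signal of the immune list, led by CD68, lay at 514 to 536 in normoxic and 759 to 810 in hypoxic WM35 and at 1410 to 1480 and 1570 to 1710 in Mel-624. The fibroblast sum lay at 613 to 646 and 650 to 719 in Mel-624, and the part of either list in the results was not tested.

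Hypoxia changed more genes in Mel-624 than in WM35, and 35.4% of all genes tested answered differently in the lines. In WM35, 1989 genes passed the test (23.8%), 884 up (10.6%) and 1105 down (13.2%). In Mel-624, 4402 passed (52.6%), 1835 up (21.9%) and 2567 down (30.7%). The difference was called for 2963 genes, 1238 relatively higher (14.8% of all tested) and 1725 relatively lower (20.6%) in Mel-624. The responses also differed in breadth, with a standard deviation over genes of 0.35 in WM35 and 0.58 in Mel-624 on the log2 scale, while the median gene stood at -0.03 and -0.05. Calls rest on limma with an adjusted p (Benjamini-Hochberg, over the whole table) under 0.05, and every fold change below is on the log2 scale with its standard error, from 3 arrays a group.

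Among genes called in both lines, 417 rose in both (4.98% of all tested), 566 fell in both (6.76%) and 274 went opposite ways (3.27%). Of the genes that rose in WM35, 47.2% rose and 14.7% fell in Mel-624, and of those that fell in WM35, 51.2% fell and 13% rose. The other way round, 22.7% of the Mel-624 rises had also risen in WM35. Over all 8371 genes the responses correlated at r = 0.31, and over the 1257 genes called in both lines at r = 0.57, as a description across genes, which are not replicates. The 2 responses share no array, though both use the same estimate of spread for each gene. Of the 983 genes that moved the same way, 300 differed in size, 253 being larger in Mel-624 and 47 larger in WM35. A further 1878 genes passed in Mel-624 and for the difference but not in WM35, and 369 passed in WM35 and for the difference but not in Mel-624. For 1267 genes called in Mel-624 and 363 called in WM35, and not in the other line, the difference itself was not called, so no line preference is shown for them. Without the WM35 arrays C and A named above, WM35 calls numbered 1312, opposite genes 177 and the last-named WM35 group 227, while 2599 differences were called.

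**Figure D1:**
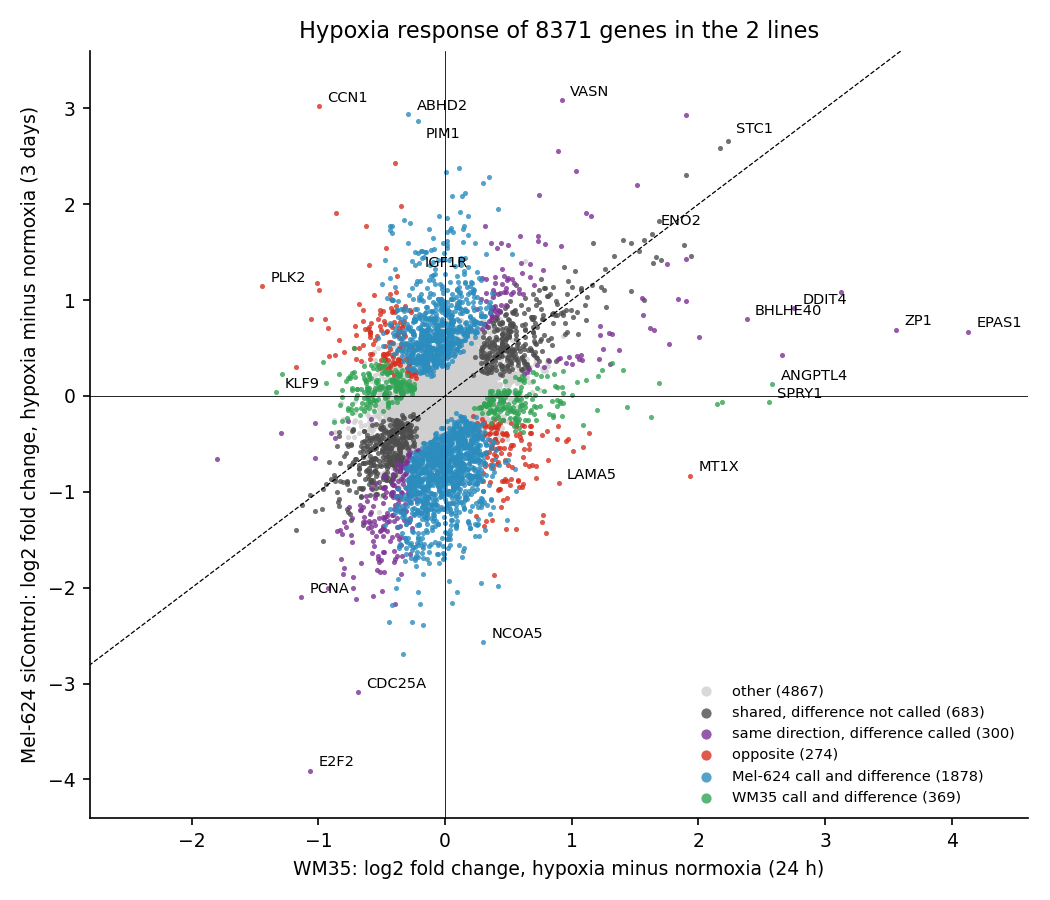
Log2 fold change of each of the 8371 genes on hypoxia in WM35 (x axis) and in Mel-624 siControl (y axis), coloured by class, with the number of genes in the legend. The dashed line marks equal responses, and the cloud is taller than wide, with standard deviations of 0.58 in Mel-624 and 0.35 in WM35.

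The classical hypoxia programme was switched on in both lines. Of 21 tested core hypoxia-inducible genes (of 30 listed), 19 rose in both lines and 0 fell, and their median changes were 1.33 in WM35 and 1.22 in Mel-624, against -0.03 and -0.05 over all genes. PFKFB3 (0.20 in WM35, 0.13 in Mel-624) and WSB1 (0.21 and 0.08) passed in neither. Of all genes, 4.98% rose in both lines. The lines parted in size for 10 of the 21, 6 being larger in WM35 and 4 larger in Mel-624. Without the WM35 arrays C and A named above, 6 were larger in WM35 and 3 in Mel-624. Over all genes, 20.6% were relatively lower and 14.8% relatively higher in Mel-624.

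ENO2, a neuronal-type enolase of glycolysis, rose in both lines. Its log2 levels on arrays A, B and C were 9.92, 10.05 and 9.59 in normoxic and 11.21, 11.64 and 11.62 in hypoxic WM35. In Mel-624 they were 10.59, 10.55 and 10.82 in normoxia and 12.24, 12.42 and 12.38 in hypoxia. The groups did not overlap in either line, as for 38.3% of all genes in WM35 and 61.3% in Mel-624. The rises of 1.64 ± 0.13 and 1.69 ± 0.13 differed by 0.05 ± 0.18 (adjusted p = 0.84). VEGFA, the main endothelial growth factor, rose by 1.26 ± 0.14 in WM35 and 1.32 ± 0.14 in Mel-624 (adjusted p of the difference 0.84), although its other detected probe read 1.15 and 0.61. STC1, a secreted glycoprotein that acts on calcium and phosphate balance, rose by 2.23 ± 0.14 and 2.66 ± 0.14 without a called difference (adjusted p = 0.11), as did NDRG1, a stress-induced growth and differentiation gene, by 1.89 ± 0.10 and 1.58 ± 0.10 (0.094). These p-values do not show that the lines responded alike. The collagen prolyl hydroxylases P4HA1 (1.47 and 1.60) and P4HA2 (1.71 and 1.42) and the mitophagy receptor BNIP3L (1.40 and 1.62) also rose in both lines with no called difference.

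For 6 core genes the rise was larger in WM35. DDIT4, an inhibitor of the growth kinase complex mTORC1, stood at 9.97, 10.15 and 10.14 in normoxic WM35 and reached 12.78, 12.86 and 12.88 in hypoxia. Its Mel-624 levels moved from 10.65, 10.55 and 10.40 to 11.45, 11.45 and 11.46. The rise was 2.76 ± 0.11 in WM35 and 0.92 ± 0.11 in Mel-624, a difference of -1.84 ± 0.15 (adjusted p = 1.2e-08). BHLHE40, a transcriptional repressor of the circadian system, rose by 2.38 ± 0.10 against 0.80 ± 0.10 (difference -1.58 ± 0.14). ADM, which encodes the vasodilator adrenomedullin, rose from 10.65, 10.64 and 10.53 to 12.21, 12.23 and 12.25 in WM35, and from 11.77, 11.64 and 11.73 to 12.45, 12.35 and 12.46 in Mel-624. Its rises were 1.62 ± 0.08 and 0.71 ± 0.08 (difference -0.91 ± 0.11). Each line was normalized on its own, so a level in WM35 is not set against a level in Mel-624. ANKRD37, INSIG2 and PFKFB4 were the other 3 with a larger WM35 rise, by 0.91, 0.82 and 0.96.

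Going the other way, BNIP3, a mitophagy receptor of the outer mitochondrial membrane, rose further in Mel-624. Its levels were 11.36, 11.50 and 11.64 in normoxic and 12.68, 12.54 and 12.63 in hypoxic WM35. In Mel-624 they went from 11.34, 11.20 and 11.38 to 13.12, 13.21 and 13.29. All hypoxic arrays lay above all normoxic ones in each line, with rises of 1.11 ± 0.12 and 1.90 ± 0.12 and a difference of 0.79 ± 0.17 (adjusted p = 0.00085). RORA, a nuclear receptor that activates clock genes, rose by 1.03 ± 0.13 in WM35 and 2.34 ± 0.13 in Mel-624 (difference 1.31 ± 0.19, adjusted p = 1.3e-05). FAM13A rose by 0.73 and 1.67. EGLN1, the prolyl hydroxylase that marks HIF in normal oxygen and is itself a HIF target, rose by 0.52 ± 0.13 and 1.06 ± 0.13. That difference (adjusted p = 0.021) was lost without Mel-624 normoxia array B, WM35 normoxia array C or WM35 hypoxia array C, where adjusted p reached 0.063.

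**Figure D2:**
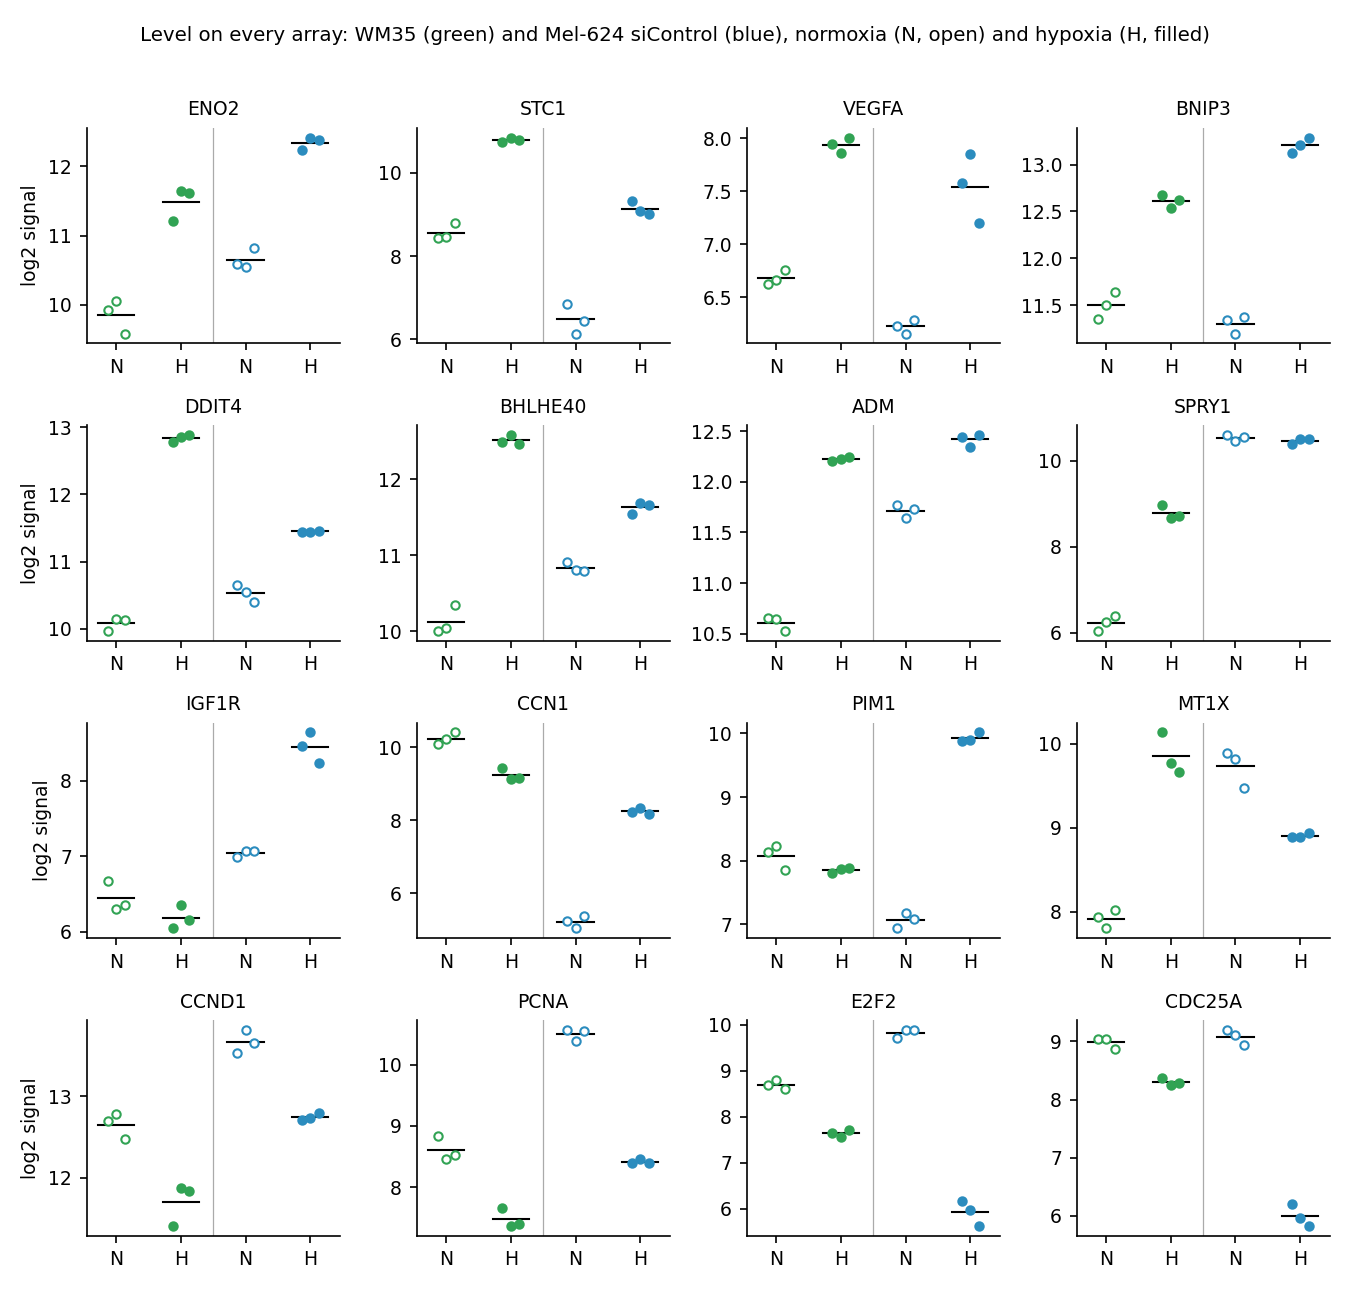
Log2 normalized signal of 16 genes on every array of normoxia (N, open circles) and hypoxia (H, filled circles) in WM35 (green) and Mel-624 siControl (blue), with a line at each group mean. Each panel has its own y axis and each line was normalized on its own. ENO2 rises in both lines with no called difference, while SPRY1 rises in WM35 and IGF1R, CCN1 and PIM1 rise in Mel-624.

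The promoters of ENO2, BHLHE40 and BNIP3 are printed because these genes stand for a rise with no called difference, a larger rise in WM35 and a larger rise in Mel-624. Each line gives the 250 bases before the RefSeq transcription start (build GRCh38.p14), 5′ to 3′ on the gene's strand, with capitals on every match to the HIF core motif, ACGTG or GCGTG read on both strands. Where the matches overlap, as in CACGTG, both are counted. The windows lie at chr12:6914330-6914579 (plus strand), chr3:4979187-4979436 (plus strand) and chr10:131981924-131982173 (minus strand).
ENO2: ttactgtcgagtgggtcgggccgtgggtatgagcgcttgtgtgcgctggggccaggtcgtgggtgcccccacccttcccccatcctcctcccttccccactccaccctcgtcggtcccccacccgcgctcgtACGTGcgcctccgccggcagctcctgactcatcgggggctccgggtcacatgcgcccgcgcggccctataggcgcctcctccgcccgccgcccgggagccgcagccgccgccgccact
BHLHE40: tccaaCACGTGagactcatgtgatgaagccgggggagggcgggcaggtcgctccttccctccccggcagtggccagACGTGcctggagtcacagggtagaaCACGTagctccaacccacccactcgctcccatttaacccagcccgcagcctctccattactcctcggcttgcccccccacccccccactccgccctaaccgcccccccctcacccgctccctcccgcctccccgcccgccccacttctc
BNIP3: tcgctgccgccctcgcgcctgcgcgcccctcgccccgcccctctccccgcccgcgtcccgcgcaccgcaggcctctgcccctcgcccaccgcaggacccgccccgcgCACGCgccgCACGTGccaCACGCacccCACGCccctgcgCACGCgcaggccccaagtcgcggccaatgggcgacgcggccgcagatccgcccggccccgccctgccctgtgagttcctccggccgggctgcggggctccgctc
ENO2 held 1 match, BHLHE40 4 and BNIP3 6. A match is a run of letters and not a shown binding site. The marked motif stood in 77.8% of core hypoxia genes with a promoter, 63.2% of glycolysis genes and 60.7% of genes that rose in both lines. It also stood in 59.7% of all tested genes and 43.1% of all promoters, so a match is common in any tested gene. The stricter word ACGTG occurred in 10 of 18 core hypoxia genes with a promoter in the RefSeq table (55.6%), in 8 of 19 glycolysis genes (42.1%), in 28.8% of the genes that rose in both lines, in 24.8% of all tested genes and in 18.7% of all 27305 promoters. It stood in 25.9% of genes that rose in WM35 and were relatively lower in Mel-624, and in 25.6% of genes that rose in Mel-624 and were relatively higher there.

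Most glycolysis genes rose in both lines. Of 19 tested genes for glucose uptake, glycolysis and lactate export, 15 rose in both and 1 more, PFKM, in Mel-624, with medians of 0.73 and 0.69. The share of all genes that rose in both was 4.98%. The glucose transporter SLC2A1 rose by 1.03 ± 0.12 in WM35 and 1.30 ± 0.12 in Mel-624, and the difference was not called (adjusted p = 0.24). Differences were called for 4 genes, all larger in WM35, while 20.6% of all genes were relatively lower in Mel-624. PFKFB4, which makes the activator of phosphofructokinase, rose by 1.65 ± 0.11 against 0.68 ± 0.11 (adjusted p of the difference 7.6e-05). ALDOC, the brain-type aldolase, rose by 1.91 ± 0.09 against 1.43 ± 0.09. Hexokinase HK2 rose by 1.55 ± 0.11 against 1.02 ± 0.11, but a second probe detected on all arrays read 0.07 and 0.52, and with the mean of its probes the difference was -0.04 (adjusted p = 0.86). The pyruvate kinase PKM differed by -0.39 ± 0.13 (adjusted p = 0.020), and lost that call in 5 of 27 alternatives, among them without Mel-624 normoxia array B, WM35 normoxia array C or WM35 hypoxia array B (adjusted p up to 0.057). GAPDH (0.13 and 0.15) and ENO1 (-0.01 in both) did not pass in either line. In glycogen metabolism, GBE1, the branching enzyme, rose by 1.15 ± 0.12 and 1.88 ± 0.12 (difference 0.73 ± 0.17), whereas PGM1, which interconverts glucose phosphates, rose by 0.87 ± 0.09 in WM35 and read 0.10 ± 0.09 in Mel-624.

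Among oxygen sensors and HIF subunits, EPAS1 (HIF-2 alpha) rose in both lines and further in WM35. Its levels were 4.69, 4.67 and 4.52 in normoxic WM35, where it was not detected on any array, and 8.74, 8.80 and 8.73 in hypoxic WM35. In Mel-624 it stood at 8.67, 8.83 and 8.70 in normoxia and reached 9.43, 9.31 and 9.47 in hypoxia. The WM35 rise was therefore at least 11.1-fold (adjusted p of the fitted change 1.2e-17), and the Mel-624 rise was 0.67 ± 0.10. Such a bound sets the detected group against the lowest signal detected on the undetected arrays, and the p does not test the bound. The fitted difference of -3.46 ± 0.15 (adjusted p = 3.6e-13) contains the undetected level. HIF1A itself was read by a probe detected on 1 of 6 WM35 arrays, and its changes (-0.59 ± 0.26 and 0.15 ± 0.26) passed in neither line. Another of its probes, detected on 3 of 6 WM35 arrays, read 0.14 and -0.03. ARNT2, a partner of the alpha subunits in neural tissue, fell by 1.43 ± 0.11 in Mel-624 and read -0.22 ± 0.11 in WM35 (difference -1.21 ± 0.16, adjusted p = 4.0e-06). The oxygen sensor EGLN2 fell by 1.28 in Mel-624 and read -0.185 in WM35, a called difference of -1.09. Its other probe read -1.38 in Mel-624 and -0.05 in WM35. EGLN1, given above, rose in both lines.

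Secreted vascular factors rose in 7 of 7 tested cases in WM35 and in 4 of 7 in Mel-624, against 10.6% and 21.9% of all genes. Their medians were 1.26 and 0.47, against -0.03 and -0.05 over all genes. Without the WM35 arrays C and A named above, 6 of the 7 rose in WM35. ANGPTL4, an inhibitor of lipoprotein lipase, stood at 5.18, 5.68 and 5.28 in normoxic and 8.10, 7.77 and 8.02 in hypoxic WM35. In Mel-624 its levels of 6.23, 6.62 and 6.07 overlapped the hypoxic 6.44, 6.17 and 6.69. It rose by 2.58 ± 0.20 in WM35, and the difference was -2.45 ± 0.28 (adjusted p = 8.3e-07). A second probe, detected on all 6 WM35 arrays and on 0 in Mel-624, read a WM35 change of 5.79. VEGFB differed by -0.42 ± 0.14 (adjusted p = 0.021), which was lost without WM35 hypoxia array A (adjusted p up to 0.060). IGFBP3, a binding protein of IGF1, rose by 0.57 ± 0.19 in WM35, and its difference of -0.76 ± 0.27 (adjusted p = 0.031) was lost in 10 of 25 alternatives, 6 of which left out 1 array (Mel-624 normoxia A or C, Mel-624 hypoxia A or B, WM35 normoxia or hypoxia C), with adjusted p up to 0.11.

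DNA replication genes fell in both lines and fell further in Mel-624. Of 35 tested genes of replication and S phase (of 42 listed), 24 fell in WM35 and 32 in Mel-624, 0 rose in either, and 23 fell in both. The difference was called for 24, all relatively lower in Mel-624, with medians of -0.54 and -1.04. Of all genes, 13.2% fell in WM35, 30.7% in Mel-624 and 6.76% in both, and 20.6% were relatively lower in Mel-624. Without the WM35 arrays C and A named above, 17 fell in WM35 and the difference was again called for 24. The gap spread over the replication machinery. It took in the MCM helicase, with MCM3 (-0.34 and -1.47), MCM6 (-0.83 and -1.40) and MCM10 (-0.80 and -1.80), the GINS complex, with GINS3 (-0.57 and -2.09), DNA polymerase epsilon, with POLE2 (-0.70 and -2.11), and the chromatin assembly factor, with CHAF1B (-0.73 and -2.01). DTL (-1.13 and -1.14), POLA2 (-0.65 and -0.64) and SLBP (-0.57 and -0.66) fell in both with no called difference.

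E2F2, a transcription factor that switches on S phase genes, had the deepest fitted fall of all genes tested in Mel-624. Its levels were 8.69, 8.80 and 8.61 in normoxic and 7.64, 7.55 and 7.72 in hypoxic WM35. In Mel-624 they went from 9.72, 9.88 and 9.89 to 6.17, 5.97 and 5.62. It fell by 1.06 ± 0.14 in WM35 and fell by 3.91 ± 0.14 in Mel-624, a difference of -2.84 ± 0.20 (adjusted p = 7.3e-10). CDC25A, the phosphatase that opens the way into S phase, moved from 9.04, 9.05 and 8.87 to 8.36, 8.25 and 8.29 in WM35 and from 9.20, 9.11 and 8.94 to 6.21, 5.95 and 5.83 in Mel-624. It fell by 0.69 ± 0.11 in WM35 and fell by 3.09 ± 0.11 in Mel-624, a difference of -2.40 ± 0.15 (adjusted p = 1.7e-10). PCNA, the sliding clamp of DNA polymerases, fell from 8.84, 8.47 and 8.52 to 7.66, 7.37 and 7.40 in WM35 and from 10.57, 10.39 and 10.56 to 8.39, 8.45 and 8.39 in Mel-624. It fell by 1.14 ± 0.13 in the former and fell by 2.10 ± 0.13 in the latter, and these differed by -0.96 ± 0.18 (adjusted p = 0.00033). CDC7, the kinase that fires replication origins, read -0.26 ± 0.17 in WM35 and fell by 2.36 ± 0.17 in Mel-624. CCND1, the G1 cyclin D1, fell by 0.94 ± 0.12 in WM35 and fell by 0.92 ± 0.12 in Mel-624, with a difference of 0.02 ± 0.17 (adjusted p = 0.94).

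The promoters of PCNA and E2F2 are shown because E2F factors are textbook activators of replication genes. Capitals mark the single match in each to an E2F word, TTTGGCGC, TTTCCCGC, TTTCGCGC or TTTGCCGC on either strand, in the 250 bases before the start at chr20:5126623-5126872 and chr1:23531234-23531483 (GRCh38.p14, both minus strand, from RefSeq).
PCNA: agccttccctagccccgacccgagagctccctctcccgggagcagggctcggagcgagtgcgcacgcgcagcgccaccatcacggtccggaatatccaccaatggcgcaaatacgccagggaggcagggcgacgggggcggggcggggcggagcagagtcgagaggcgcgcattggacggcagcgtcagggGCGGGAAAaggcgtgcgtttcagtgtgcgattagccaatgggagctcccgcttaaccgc
E2F2: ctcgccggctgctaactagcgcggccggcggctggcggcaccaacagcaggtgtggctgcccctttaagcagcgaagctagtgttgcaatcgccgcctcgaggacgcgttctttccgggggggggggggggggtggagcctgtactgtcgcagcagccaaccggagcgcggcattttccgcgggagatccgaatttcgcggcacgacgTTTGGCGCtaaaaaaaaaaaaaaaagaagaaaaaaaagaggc
Of 32 replication genes with a promoter in the table, 13 held such a word (40.6%), against 5.04% of tested genes, 8.16% of genes that fell in both lines, 6.50% of genes that fell in Mel-624 with a called difference and 2.79% of all promoters.

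Mitotic genes moved in both directions. Of 40 tested genes of G2/M, spindle and kinetochore, 14 fell and 1 rose in WM35 (13.2% and 10.6% of all genes), while 14 rose and 6 fell in Mel-624 (21.9% and 30.7%). The difference was called for 18, with 14 relatively higher and 4 relatively lower in Mel-624 (14.8% and 20.6%), and 6 genes went opposite ways. The Mel-624 rises numbered 9 without Mel-624 normoxia array C, and the WM35 falls 8 without WM35 normoxia array B and 9 without WM35 hypoxia array A. The relatively lower genes numbered 1 without Mel-624 normoxia array B or C, Mel-624 hypoxia array B, WM35 normoxia array C or WM35 hypoxia array C, and 2 without Mel-624 hypoxia array C or WM35 hypoxia array B. BUB1, a kinase of the spindle checkpoint, stood at 8.10, 8.06 and 8.20 in normoxic and 7.61, 7.67 and 7.74 in hypoxic WM35, and at 9.33, 9.11 and 9.26 against 9.76, 9.77 and 9.86 in Mel-624. The groups did not overlap in either line, and the changes were -0.45 ± 0.14 and 0.56 ± 0.14 (difference 1.01 ± 0.19, adjusted p = 0.00031). The checkpoint kinase TTK (-0.34 and 0.51) and cyclin A2, CCNA2 (-0.46 and 0.44), were opposite too. KIF2C, a microtubule depolymerising kinesin, rose by 0.88 ± 0.10 in Mel-624 and read -0.11 ± 0.10 in WM35. Among the 6 that fell in Mel-624 were ASPM, a spindle pole protein, by 1.43 ± 0.13, and SPC25 of the kinetochore (-0.65 and -1.32). MKI67, a widely used proliferation marker, fell by 0.54 ± 0.16 in Mel-624 and read 0.07 ± 0.16 in WM35. Its difference (adjusted p = 0.036) was lost in 8 of 27 alternatives, 7 of which left out 1 array (Mel-624 normoxia or hypoxia B or C, WM35 normoxia C, WM35 hypoxia B or C), with adjusted p up to 0.12. Without the WM35 arrays C and A, 7 mitotic genes fell in WM35 in place of 14, and 12 were relatively higher in Mel-624. Among inhibitors of the cycle, CDKN1C (p57) rose by 1.77 ± 0.17 in Mel-624 and read -0.42 ± 0.17 in WM35, where it was not detected in hypoxia, and CDKN1B (p27) rose by 0.40 in WM35 and 0.93 in Mel-624. A second CDKN1B probe, detected on 3 of 6 WM35 arrays and all 6 Mel-624 arrays, read -0.24 and 0.90, so the WM35 rise was not shared by both probes. The CDKN1B difference of 0.54 was lost in 11 of 27 alternatives, among them without the same 7 arrays as for MKI67 (adjusted p up to 0.095).

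**Figure D3:**
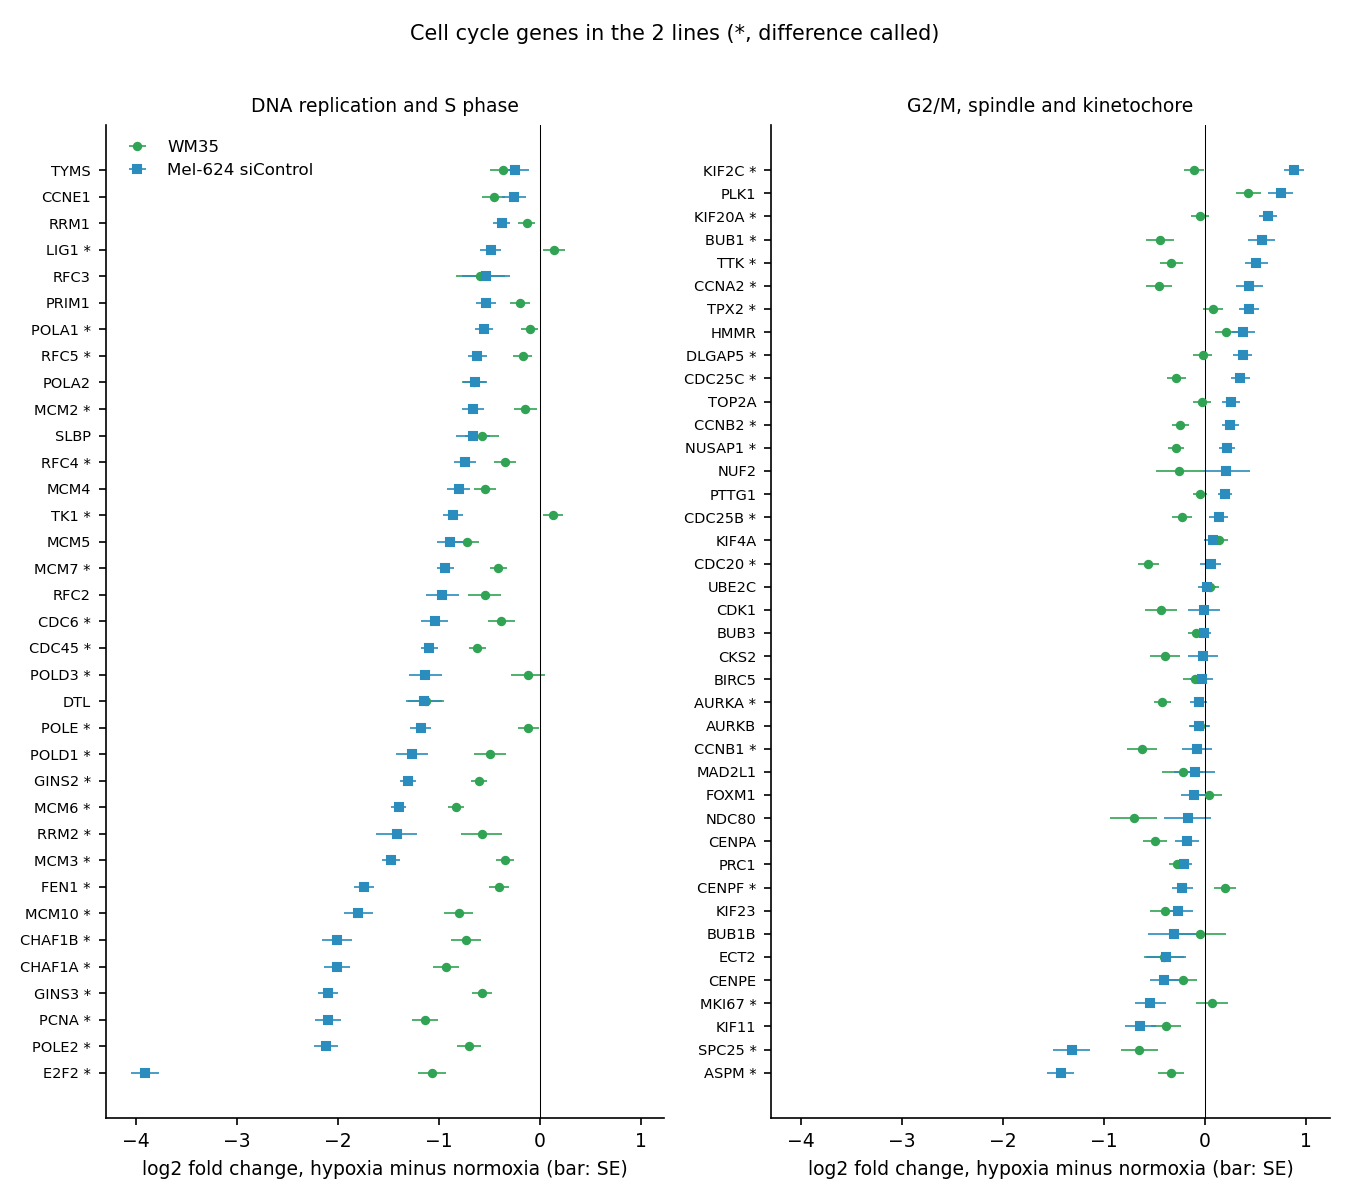
Log2 fold change on hypoxia with its standard error for each tested gene of DNA replication and S phase (left) and of G2/M, spindle and kinetochore (right), in WM35 (green circles) and Mel-624 siControl (blue squares), ordered by Mel-624, with * where the difference was called. Replication genes lie left of 0 in Mel-624, whereas 14 mitotic genes rise there.

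The receptor for IGF1, the target of the wider study, answered in a single line. IGF1R levels were 6.67, 6.30 and 6.36 in normoxic and 6.04, 6.35 and 6.16 in hypoxic WM35, and those groups overlapped. In Mel-624 they rose from 6.98, 7.06 and 7.07 to 8.46, 8.65 and 8.23. The changes were -0.26 ± 0.16 (adjusted p = 0.25) and 1.41 ± 0.16, a difference of 1.67 ± 0.23 (adjusted p = 6.7e-06). PIK3R1, the regulatory subunit of phosphoinositide 3-kinase, went from 7.44, 7.27 and 7.15 to 7.48, 7.88 and 7.94 in WM35 and from 8.03, 8.08 and 8.04 to 6.57, 6.76 and 6.66 in Mel-624. It rose by 0.48 ± 0.14 in the former and fell by 1.39 ± 0.14 in the latter. The receptor adaptor IRS1 fell by 0.46 ± 0.12 in Mel-624 and read 0.15 ± 0.12 in WM35 (difference -0.60 ± 0.17, adjusted p = 0.010), and IRS2 passed in neither line. The binding protein IGFBP2 rose by 0.82 ± 0.11 in WM35 and read -0.19 ± 0.11 in Mel-624. Of 11 tested IGF axis genes, 1 was relatively higher and 6 were relatively lower in Mel-624, against 14.8% and 20.6% of all genes.

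Of 24 tested early response and ERK feedback genes, 6 were relatively higher and 6 relatively lower in Mel-624, against 14.8% and 20.6% of all genes. FOS, a subunit of the AP-1 transcription factor, stood at 5.98, 6.14 and 6.60 in normoxic and 6.03, 5.89 and 5.55 in hypoxic WM35 and rose from 8.77, 8.82 and 8.45 to 10.39, 10.36 and 10.38 in Mel-624. The difference was 2.12 ± 0.26 (adjusted p = 2.2e-06). EGR1 (-0.09 and 1.39) and JUN (0.74 and 2.09) were also relatively higher in Mel-624. SPRY1, which restrains receptor signalling to ERK, rose from 6.05, 6.26 and 6.40 to 8.97, 8.68 and 8.72 in WM35. In Mel-624 it was at 10.60, 10.45 and 10.55 in normoxia and 10.39, 10.51 and 10.51 in hypoxia, a change of -0.06 ± 0.11 against 2.55 ± 0.11 in WM35 (difference -2.62 ± 0.16, adjusted p = 1.0e-10). Its second detected probe read 2.49 and -0.0023. SPRY2 (-0.22 and -1.21) and the phosphatase DUSP6 (0.37 and -0.67) were relatively lower in Mel-624 as well. MYC rose in both lines, by 0.41 ± 0.13 and 0.90 ± 0.13, and its difference (adjusted p = 0.046) was lost in 17 of 27 alternatives, 7 of which left out 1 array (Mel-624 normoxia A or C, Mel-624 hypoxia B or C, WM35 normoxia B or C, WM35 hypoxia C), with adjusted p up to 0.15. FOXO factors act when growth factor signalling is low. Of 19 tested FOXO targets and other growth-restraining genes, 9 rose in WM35, 13 in Mel-624 and 8 in both. Of all genes, 10.6%, 21.9% and 4.98% did so. In this list 7 were relatively higher and 3 relatively lower in Mel-624 (14.8% and 20.6% of all genes). YPEL2 (0.02 and 1.86), the repressor BCL6 (-0.16 and 1.51) and the muscle atrophy ubiquitin ligase FBXO32 (-0.06 and 1.42) rose in Mel-624, and TXNIP, an inhibitor of thioredoxin and glucose uptake, rose in WM35 (0.91 and -0.05).

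Most called differences among amino acid and sterol genes were higher in Mel-624. Of 28 tested genes of the ATF4 and amino acid response, 13 fell and 2 rose in WM35, 9 rose and 8 fell in Mel-624, and the difference was called for 14 higher and 5 lower, against 14.8% and 20.6% of all genes. Without the WM35 arrays C and A, 6 fell in WM35 and 11 differences were higher. SLC3A2, the heavy chain of amino acid transporters, fell from 10.95, 11.05 and 10.93 to 10.30, 10.49 and 10.62 in WM35 and rose from 11.56, 11.66 and 11.68 to 12.33, 12.30 and 12.32 in Mel-624 (difference 1.19 ± 0.13, adjusted p = 5.8e-07). ASNS, asparagine synthetase, moved from 11.19, 11.24 and 11.21 to 10.65, 10.74 and 10.68 in WM35 and from 10.33, 10.54 and 10.25 to 10.76, 10.68 and 10.66 in Mel-624. ATF4 itself changed by -0.41 and 0.33. CEBPG (-0.27 and -1.69) and the glutamine transporter SLC38A2 (0.09 and -1.34) ran against the list. In cholesterol synthesis and uptake, 7 of 15 genes were relatively higher and 2 relatively lower in Mel-624. There INSIG1 (-0.40 and 0.77) and HMGCS1 (-0.51 and 0.29) fell in WM35 and rose in Mel-624, and LSS, lanosterol synthase, did the reverse (0.37 and -0.34). Without the WM35 arrays C and A, 0 of the 15 rose in WM35 in place of 2, so the LSS rise was not called there. In that setting 2 of the 15 fell in WM35 in place of 3. A second INSIG1 probe, detected on all 6 Mel-624 arrays and on 0 of 6 in WM35, read -0.14 in Mel-624. The inducible heat shock gene HSPA1B fell by 0.65 ± 0.10 in WM35 and rose by 0.78 ± 0.10 in Mel-624, while HSPA1A fell by 1.29 ± 0.19 in WM35 and read 0.23 ± 0.19 in Mel-624. These genes are near-identical copies, so their probes may share signal.

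**Figure D4:**
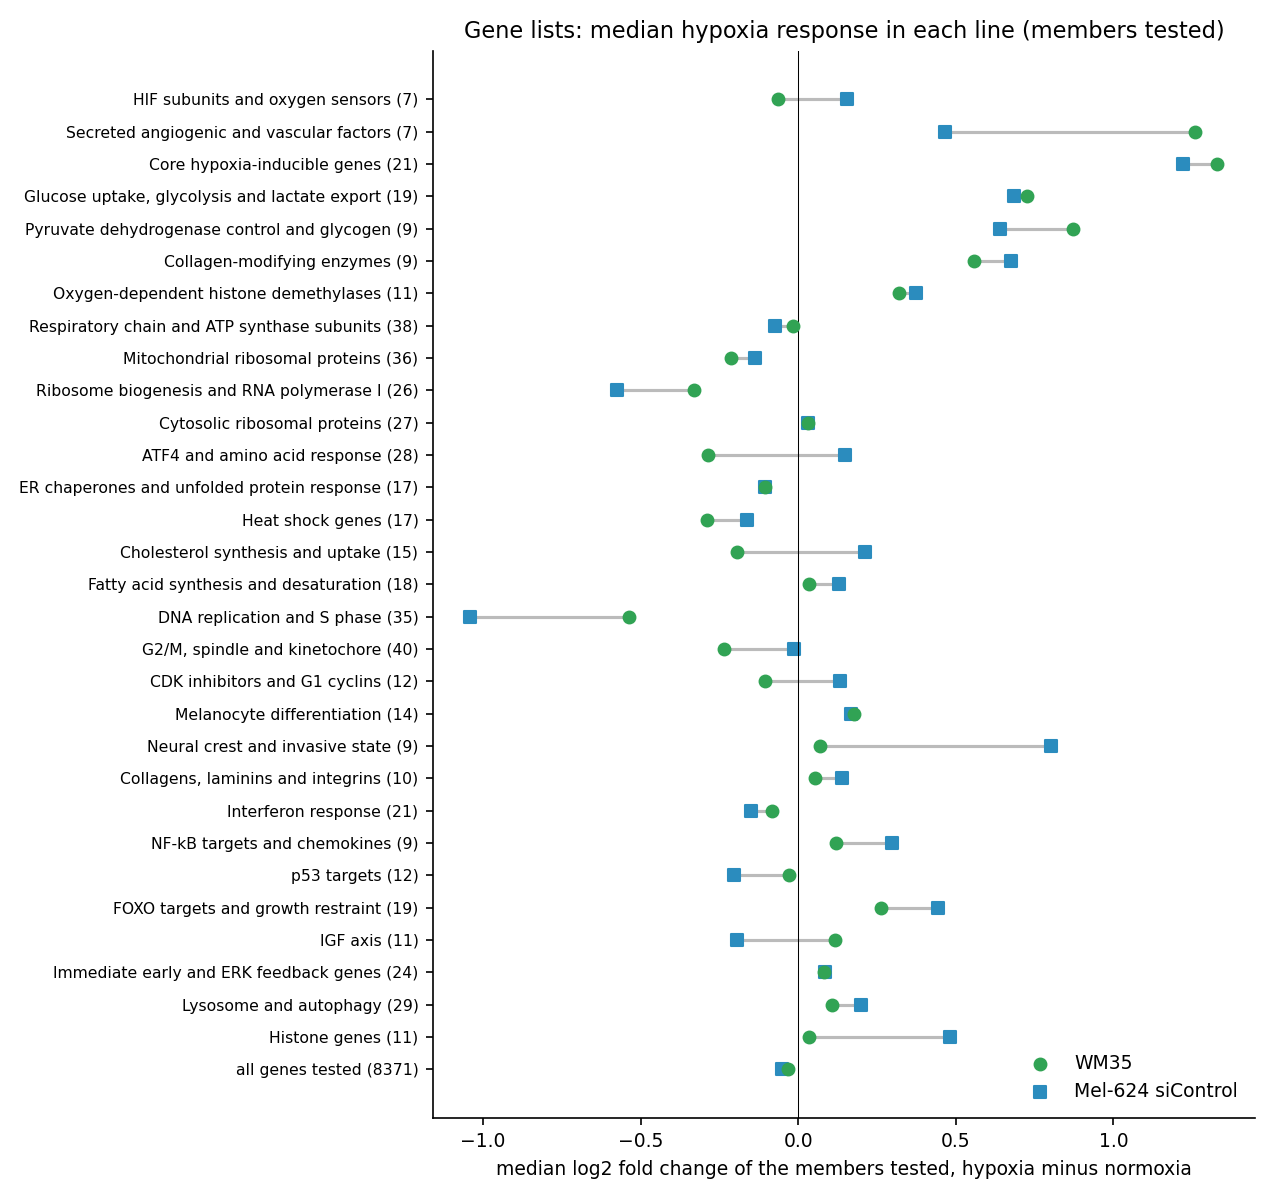
Median log2 fold change on hypoxia of the tested members of each gene list in WM35 (green circles) and Mel-624 siControl (blue squares), with the number of tested members in brackets. The core hypoxia and glycolysis medians lie close together at 1.33 and 1.22 and at 0.73 and 0.69, while the replication medians lie at -0.54 and -1.04.

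The largest positive fitted difference of all genes belonged to CCN1, a secreted matrix protein that binds integrins. In WM35 it fell from 10.09, 10.23 and 10.41 to 9.43, 9.14 and 9.17. In Mel-624 it was not detected in normoxia (5.24, 5.04 and 5.38) and reached 8.23, 8.33 and 8.17 in hypoxia. That was a rise of at least 6.51-fold (adjusted p of the fitted change 1.4e-14) against a fall by 1.00 ± 0.11 in WM35. The related CCN2 fell by 0.97 ± 0.22 in WM35 and read 0.35 ± 0.22 in Mel-624. PIM1, a serine/threonine kinase that favours survival, stood at 8.14, 8.23 and 7.85 in normoxic and 7.81, 7.87 and 7.88 in hypoxic WM35 and rose from 6.93, 7.18 and 7.08 to 9.88, 9.89 and 10.02 in Mel-624 (difference 3.08 ± 0.15, adjusted p = 6.6e-12). ABHD2, a lipid hydrolase, rose by 2.94 ± 0.12 in Mel-624 and read -0.29 ± 0.12 in WM35. GADD45A, a stress gene that restrains the cell cycle, rose by 1.77 ± 0.17 in Mel-624 and read -0.43 ± 0.17 in WM35. The U3 small nucleolar RNA copies SNORD3C and SNORD3D rose by 2.38 ± 0.18 and 2.33 ± 0.16 in Mel-624, and their probes cannot be separated from each other because the copies are nearly identical. NEDD9, an adhesion scaffold, has a difference of 2.82 ± 0.17 from its brightest kept probe, which was detected on 1 of 6 WM35 arrays, whereas the probe detected on all 12 arrays read -0.88, so no direction is given for it.

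In the other direction, MT1X, a metal-binding metallothionein, rose from 7.93, 7.80 and 8.02 to 10.13, 9.77 and 9.66 in WM35 and fell from 9.89, 9.82 and 9.48 to 8.88, 8.88 and 8.93 in Mel-624 (difference -2.77 ± 0.21, adjusted p = 3.1e-09). The groups did not overlap in either line, a condition for the opposite genes picked here. LAMA5, a laminin chain of basement membranes, rose by 0.90 ± 0.11 in WM35 and fell by 0.91 ± 0.11 in Mel-624. Among genes that fell in WM35 and rose in Mel-624, TGM2, a protein crosslinking enzyme, changed by -0.99 ± 0.08 and 1.11 ± 0.08, and the chemokine CXCL8 by -0.93 ± 0.15 and 0.71 ± 0.15. EMP1, an epithelial membrane protein, changed by -0.35 ± 0.10 and 1.98 ± 0.10. The thrombospondin THBS1 fell by 0.95 ± 0.19 in WM35 and was detected on no Mel-624 array, so its call there rests on signal at background. ZP1, an egg coat glycoprotein (3.56 ± 0.14 and 0.69 ± 0.14), rose in both and further in WM35. Of the called WM35 rises with no call in Mel-624, TENT5A, a poly(A) polymerase, went from 8.73, 8.59 and 8.58 to 10.68, 10.89 and 10.90 and changed by 2.19 ± 0.09, against -0.07 ± 0.09 in Mel-624. ARG2, the mitochondrial arginase, rose by 2.15 ± 0.10 in WM35 and read -0.08 ± 0.10 in Mel-624. KLF9, a transcription factor induced by glucocorticoids, fell by 1.33 ± 0.09 in WM35 and read 0.04 ± 0.09 in Mel-624. Of the Mel-624 falls, NCOA5, a nuclear receptor coregulator, was detected on all 3 normoxic arrays and on 0 of 3 hypoxic arrays. It was at least 4.89-fold lower (adjusted p of the fitted change 1.8e-12), and read 0.30 ± 0.13 in WM35.

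For 1775 genes with several kept probes, the probes gave the difference the same sign in 1263, and in 85.9% of those whose difference was called. The number of arrays limits the precision throughout, and for both groups of a line at background no fold is given.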

How the data were processed

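The deposited table gives an average signal intensity and a detection p-value per probe and array, per the file headers, made with GenomeStudio per the submitters' processing notes (version not given in the sources used here), with background already subtracted, as values below 0 occur. A second table of intensity normalized by the authors, whose method is not stated, served as an alternative. Here each line's 12 arrays were background corrected from the detection p-values, quantile normalized and log2 transformed with neqc of limma 3.58.1 (offset 16, R 4.3.3). Probes with detection p below 0.01 on at least 3 of 12 arrays in each line were kept, and the probe with the highest mean over both lines stood for its gene. One limma fit of 24 arrays with 8 group means (checked on simulated data) gave both responses and their difference, adjusted by Benjamini-Hochberg over 8371 genes. Gene symbols came from the platform annotation updated through RefSeq (27003 probes with 1 symbol, 4 with several, 20224 with none). A group detected on none of its arrays gives a bound, and the p printed beside it is that of the fitted change. The main fit did not treat arrays of the same letter as pairs.

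The named genes are a fixed set, the largest differences, the leading shared, opposite and single-line genes, and the 5 members of each list with the smallest p of the difference. Shared, opposite and single-line genes were picked among those whose oxygen groups did not overlap in each line called. Further list members were named after their values were seen. Members and lists were chosen with earlier results of these data known. Alternatives changed the background correction, normalization, detection filter, probe choice, arrays in the fit, replicate block, array weights and fold threshold, and left out arrays.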

Additional observations from a re-analysis of the deposited data

Results flagged for a closer look

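The comparison itself tests whether hypoxia acted differently in the lines, and it did so for 2963 genes by limma, 274 of them called in opposite directions. Of the 16 genes that lead the opposite group, THBS1 was detected on no Mel-624 array and is left out here. The choice of these 16 required no overlap between normoxia and hypoxia in either line. Of all genes, 38.3% had no such overlap in WM35 and 61.3% in Mel-624. The lack of overlap is therefore no result for the other genes. Their differences, Mel-624 minus WM35 on the log2 scale, were 4.02 for CCN1, 2.77 for TOM1L2, 2.58 for PLK2, 2.10 for TGM2, 1.86 for HLA-DMB, 1.63 for CXCL8 and 1.44 for TRMT11, which fell in WM35 and rose in Mel-624. The reverse held for MT1X at -2.77, CYP4V2 at -2.23, STEAP3 at -2.08, MIR3142HG at -2.01, LAMA5 at -1.81, CYTH2 at -1.57, DNAAF19 at -1.45 and THOC6 at -1.41. With detection asked on all 24 arrays, CYTH2 was read by another probe at -0.014 (adjusted p = 0.96). CCN1 and TOM1L2 were undetected in normoxic Mel-624, PLK2 in hypoxic WM35, and CYP4V2 and STEAP3 in hypoxic Mel-624.

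The report's comparisons do not use probes without a gene name. Of 3781 such probes kept in both lines, 820 showed a called difference (21.7%), 390 relatively higher and 430 relatively lower in Mel-624, and 54 went opposite ways, against 31.8% called among the 10485 named probes of the same fit.

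Groups of 3 arrays were not examined for single outlying values.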

How the results depend on the processing

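Over all 27 alternatives the 7 counts moved by over 1.5 times in 12 cases. A fold change of at least 1.5 left 584 WM35 calls, 2281 Mel-624 calls, 235 genes changed the same way, 38 opposite and 152 called in WM35 with a called difference and none in Mel-624. Without WM35 normoxia array C and hypoxia array A these were 1312 in WM35, 177 opposite and 227 for WM35 with the difference, and fewer arrays entered. Array weights gave 3224 WM35 calls, 1516 the same way, 508 opposite and 596 for WM35 with the difference, and the cause was not tested. Leaving out 1 array at a time, differences numbered 2600 to 2881, WM35 calls 1510 to 2000, Mel-624 calls 3952 to 4469, same-way genes 747 to 953, opposite genes 199 to 251, Mel-624 genes with the difference 1683 to 1921 and WM35 genes with the difference 281 to 367. Same-letter residuals correlated at -0.31 to 0.09 in WM35 and -0.01 to 0.06 in Mel-624. In groups this small, such values cannot show whether equal letters mark paired samples. With the replicate block 3021 differences were called. Of the 2963 differences, 2037 to 2935 kept their call and direction among the alternatives that tested them all. The share of higher calls stayed at 39.1% to 44.8%. NEDD9 reversed to -1.03 with no further background correction and to -0.88 when detection was asked on at least 3 of the 6 compared arrays of each line or on all 3 arrays of a compared group, where another probe is read. The last of these and the deposited values without an added offset were chosen after the data were seen. PDK3, at -0.58 in the main fit, reversed to 0.31 with the mean of its probes. RAB20, whose main difference of -0.018 was not called, read 0.38 with deposited values plus 16 and was called only there. Signal near background limits the genes whose group was undetected.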

Other observations

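Of 26 tested genes of ribosome biogenesis and RNA polymerase I, 13 fell and 1 rose in WM35 (13.2% and 10.6% of all genes), 19 fell and 0 rose in Mel-624 (30.7% and 21.9%), and 11 fell in both (6.76%). The difference was called for 10, all relatively lower in Mel-624 (20.6%). Without WM35 normoxia array C and hypoxia array A, 9 fell in WM35 and 6 fell in both. NOP56, a core protein of box C/D nucleolar particles, moved from 10.56, 10.49 and 10.53 to 10.08, 9.87 and 10.03 in WM35 and from 11.69, 11.57 and 11.68 to 9.80, 9.87 and 9.84 in Mel-624 (difference -1.28 ± 0.13, adjusted p = 1.5e-07). Among 27 cytosolic ribosomal protein genes 0 differences were called by limma and 2 had an unadjusted p under 0.05, and their median changes were 0.03 in each line. RPL14 had the widest difference of these, 0.59 (adjusted p = 0.056), which was called in 11 of 27 alternatives, among them the replicate block and array weights, with adjusted p from 0.015 to 0.16 over all of them. In the respiratory chain, 4 of 38 genes were relatively higher and 7 relatively lower in Mel-624, against 14.8% and 20.6% of all genes. The 7 became 3 without Mel-624 normoxia array C and 4 without Mel-624 normoxia array A, WM35 normoxia array A or WM35 hypoxia array A. They also became 4 when WM35 normoxia array C and hypoxia array A were both left out. SDHD, the membrane anchor of succinate dehydrogenase, fell by 0.58 ± 0.15 in WM35 and rose by 0.44 ± 0.15 in Mel-624, and UQCRC2 of complex III changed by -0.45 ± 0.14 and 0.44 ± 0.14.

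IRF9, which carries the interferon signal to DNA, rose by 0.46 ± 0.11 in WM35 and fell by 1.08 ± 0.11 in Mel-624, and 3 of 21 interferon response genes were relatively higher and 5 relatively lower in Mel-624, near the 14.8% and 20.6% of all genes. The 3 became 1 without Mel-624 normoxia array C, Mel-624 hypoxia array A or WM35 normoxia array B. Of 12 p53 targets, 2 were relatively higher and 5 relatively lower in Mel-624, against 14.8% and 20.6% of all genes. TIGAR, a p53 target that lowers glycolytic flux, fell by 1.77 ± 0.18 in Mel-624 and read -0.23 ± 0.18 in WM35. NFKBIA, the inhibitor of NF-kB, rose by 1.36 ± 0.12 in Mel-624 and read 0.08 ± 0.12 in WM35. In lipid synthesis, the elongase ELOVL6 fell by 1.73 ± 0.14 in Mel-624 and read -0.32 ± 0.14 in WM35, whereas ELOVL5 changed by -0.55 ± 0.17 and 0.58 ± 0.17. Of 29 lysosome and autophagy genes, 6 were relatively higher (14.8% of all genes) and 6 relatively lower (20.6%), and without WM35 normoxia array C and hypoxia array A 3 were higher.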
